A study of Mus musculus with 4 samples.

Results

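Extracellular ATP and adenosine signal through a chain of proteins on the cell surface, and 10 mouse genes of that chain were examined in monocytes given retinoic acid. They encode the ATP-gated channels P2rx1, P2rx4 and P2rx7, the ATP release channel Panx1, the ectonucleotidases Entpd1 and Nt5e, the adenosine receptors Adora2a, Adora2b and Adora3, and adenosine deaminase, Ada. The genes were chosen with earlier results of these data known. Their probe sets were chosen by symbol alone, as every one that the platform annotation gives exactly 1 gene symbol. That found 8 of the 10 genes, with 1 probe set each, among 41345 probe sets in the table. Adora2a and Adora2b had no such probe set and were not analysed here.

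ATP that leaves stressed or dying cells opens P2X channels, which let sodium and calcium into myeloid cells. P2rx7 needs high ATP and is known for triggering the NLRP3 inflammasome, which activates caspase 1 and releases interleukin 1 beta. Entpd1 (CD39) removes phosphates from ATP and ADP, Nt5e (CD73) turns the resulting AMP into adenosine, and adenosine damps inflammation through receptors coupled to cyclic AMP until Ada converts it to inosine.

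The cells were Ly6C-high monocytes, sorted from marrow that was pooled from 3 mice, and grown in GM-CSF (20 ng per ml) plus interleukin 4 (20 ng per ml). Both groups received this medium, with 100 nM all-trans retinoic acid (RA) in one and its solvent, DMSO, in the other, and RNA was taken after 24 h. Each group had 2 one-colour arrays. The labels do not say whether the arrays of a group came from separate cultures or pools, so a p-value reflects the spread among these arrays alone, part or all of which may be technical. Mouse strain and age are not given in the sources used here.

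Values are log2 of the authors' normalized intensities, and a level under 6.35, which is the 95th percentile over 1400 probe sets of olfactory and vomeronasal receptors, counted as dim. Array medians ran from 80.0 to 81.8 on the linear scale, and array pairs correlated at 0.9931 and 0.9943 across probe sets within a treatment, against 0.9841 to 0.9879 between treatments. Of 10 markers of the labelled cells, among them Csf1r, Ly6c2, Ccr2 and Itgax, 10 were above the dim level on all arrays. In limma, 1 of them passed, H2-Ab1, an MHC class II gene, which fell by 1.54 on the log2 scale (adjusted p = 0.00498), and 6 had an unadjusted p under 0.05. Among the 9 that did not pass, Itgam and Fcgr1 differed by 0.66 ± 0.117 and 0.60 ± 0.119, and Ccr2 and Itgax by -0.34 ± 0.081 and -0.42 ± 0.077. The summed intensity of the 10 was 35753 to 36618 with RA and 39664 to 41789 with DMSO. The lower sum with RA rested on H2-Ab1, at 11.78 and 11.77 with RA and 13.34 and 13.28 with DMSO. The median log2 difference of the 10 was 0.07, with both RA arrays above both DMSO arrays for 4 and below for 5. The part of these markers in the members' results was not tested. As a check of the labels, Cyp26a1, which degrades RA, was at 9.62 and 9.69 with RA and at 5.71 and 5.33 with DMSO. Dhrs3 and Rarb, also RA response genes, were higher by 2.66 ± 0.171 and 1.65 ± 0.095 (log2, SE; limma adjusted p = 0.00826 and 0.00646).

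RA receptors bind pairs of a short hexamer, so the stretch before each member's start was searched for it. The sequences are RefSeq's (assembly GRCm38.p6), which held 11 windows for 9 of the genes, Adora2b included. The hexamer was taken as AGGTCA, with GGGTCA accepted in its place, and likewise AGTTCA and also GGTTCA, on either strand. A direct repeat was a pair of these on one strand spaced by 1, 2 or 5 bases, and so overlaps the count of single hexamers. Such a repeat stood in the 250 bases before Rarb and Cyp26a1, but in none of the 3 windows of Dhrs3, the other RA response gene, and in 0 of the 11 member windows. Of 32851 windows of the same length in the table, 0.426% held one. A single hexamer, which 38.6% of all windows held, was present in 6 of the 11. The windows of the members that passed the test below are printed 5′ to 3′ with hexamers in capitals, and Rarb is shown to display the paired form.
P2rx7, first start (chr5:122643677-122643926, + strand): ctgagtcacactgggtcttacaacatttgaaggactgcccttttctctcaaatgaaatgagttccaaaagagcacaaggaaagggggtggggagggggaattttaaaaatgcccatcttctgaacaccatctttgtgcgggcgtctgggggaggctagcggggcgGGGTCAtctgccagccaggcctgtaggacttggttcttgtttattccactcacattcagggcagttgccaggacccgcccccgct
P2rx7, second start (chr5:122650133-122650382, + strand): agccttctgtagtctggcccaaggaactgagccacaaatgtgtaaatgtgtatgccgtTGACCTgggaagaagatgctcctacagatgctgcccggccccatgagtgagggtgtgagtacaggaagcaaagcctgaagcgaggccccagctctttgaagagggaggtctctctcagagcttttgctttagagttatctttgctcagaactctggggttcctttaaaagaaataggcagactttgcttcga
P2rx1 (chr11:72998895-72999144, + strand): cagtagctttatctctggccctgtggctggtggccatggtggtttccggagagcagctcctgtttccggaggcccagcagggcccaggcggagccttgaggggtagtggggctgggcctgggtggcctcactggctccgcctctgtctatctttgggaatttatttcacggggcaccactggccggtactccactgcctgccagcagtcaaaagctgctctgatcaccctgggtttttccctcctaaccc
Entpd1, first start (chr19:40612116-40612365, + strand): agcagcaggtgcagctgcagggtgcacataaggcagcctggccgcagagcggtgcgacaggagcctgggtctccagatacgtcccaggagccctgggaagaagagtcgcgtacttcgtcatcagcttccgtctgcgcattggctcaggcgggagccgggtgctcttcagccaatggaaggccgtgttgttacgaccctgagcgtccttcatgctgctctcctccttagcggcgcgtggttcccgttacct
Entpd1, second start (chr19:40659520-40659769, + strand): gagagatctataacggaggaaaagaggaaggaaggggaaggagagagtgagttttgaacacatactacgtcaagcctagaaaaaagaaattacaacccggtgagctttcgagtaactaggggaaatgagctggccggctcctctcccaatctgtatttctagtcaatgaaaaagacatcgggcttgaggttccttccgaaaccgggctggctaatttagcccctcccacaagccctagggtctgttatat
Rarb (chr14:16575477-16575726, - strand): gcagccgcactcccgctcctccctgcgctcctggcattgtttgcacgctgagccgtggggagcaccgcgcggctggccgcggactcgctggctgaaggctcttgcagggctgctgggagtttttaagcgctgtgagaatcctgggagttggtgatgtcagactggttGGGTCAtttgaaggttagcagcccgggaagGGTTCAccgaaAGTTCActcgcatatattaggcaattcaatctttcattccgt
Each P2rx7 window held 1 hexamer, GGGTCA at 85 to 80 bases before the first start and AGGTCA, on the opposite strand, at 192 to 187 before the second. The Rarb window held the pair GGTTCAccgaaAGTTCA, 53 to 37 bases before its start, and 1 hexamer further upstream. P2rx1 and Entpd1 held none of the 4 spellings in these windows. A match is a description of the letters, not of binding, and a missing one says only that these letters are not in the window.

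With RA, the channel genes P2rx7 and P2rx1 rose and the ATP-degrading Entpd1 fell, each by more than 2-fold, while the other 5 members did not pass the test. These are 2 higher and 1 lower of 8 members, where limma, at the 0.05 threshold on the adjusted p, called 1.28% of 22180 genes higher and 1.79% lower, or 3.07% in either direction (2.09% of all 39720 probe sets). The members were proposed with earlier results in view, so their count is a description. In bulk RNA, fewer cells of a type and less RNA per cell cannot be told apart. The 2 groups of arrays did not overlap for 7 of the 8 members, against 48% of all genes, and the exception was Nt5e. For Adora3, which was under the dim level on all arrays, the nearest arrays of the groups were only 0.005 apart. The median log2 difference, RA minus DMSO, was 0.35 over the 8 members and 0.009 over all genes.

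**Figure D1:**
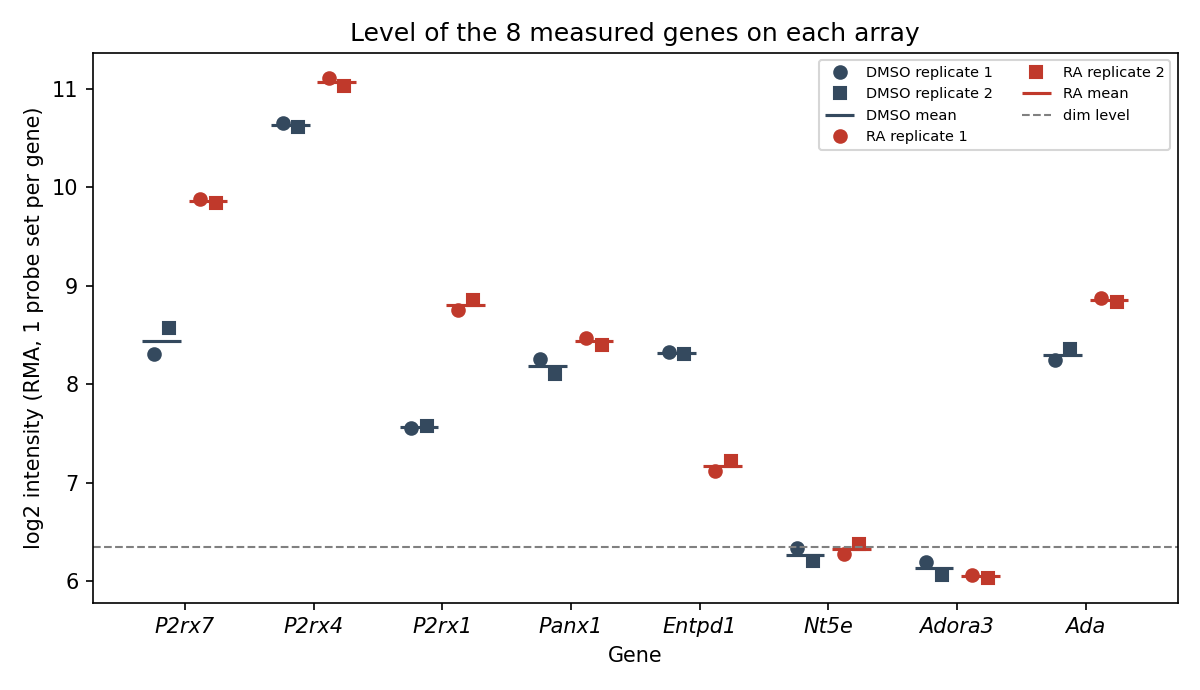
Log2 intensity (vertical axis) of the 8 measured genes on each of the 4 arrays; circles are replicate 1, squares replicate 2, short lines the means of 2 arrays and the dashed line the dim level of 6.35. P2rx7, P2rx4, P2rx1, Panx1 and Ada are higher on both RA arrays and Entpd1 lower on both, while Adora3 lies under the dim level on all arrays and Nt5e on all but RA replicate 2 (6.38).

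P2rx7 had the largest difference among the members. Its deposited intensities were 944 and 917 with RA and 317 and 381 with DMSO. On the log2 scale these were 9.88 and 9.84 against 8.31 and 8.57, so the lowest RA array stood 1.27 above the highest DMSO array. The DMSO arrays lay 0.27 apart and the RA arrays 0.043. The group means, 9.86 ± 0.031 and 8.44 ± 0.19 (SD, n = 2), differed by 1.42 ± 0.115 (SE), a 2.68-fold rise with a 95% confidence interval of 2.17 to 3.30 (limma adjusted p = 0.0137). Of 22180 genes, 81 had a larger positive difference.

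P2rx4, which sits next to P2rx7 on the chromosome and is known for a role in lysosomes and microglia, was higher on both RA arrays without passing. It read 11.11 and 11.03 with RA and 10.65 and 10.62 with DMSO. The groups did not overlap; the difference of 0.44 ± 0.080 (1.36-fold, 95% confidence interval 1.17 to 1.57) did not pass (limma adjusted p = 0.0940). It passed in 3 of 13 alternative settings, with the lowest adjusted p at 0.022. Within each array, the gap between P2rx7 and P2rx4 shifted by 0.98 between treatments, with the RA arrays at -1.23 and -1.19 and the DMSO arrays at -2.34 and -2.04. The exact permutation test of that shift, two-sided and 1 of 2 such pairs compared, gave p = 0.333 (adjusted p = 0.333), the smallest that 2 arrays against 2 allow.

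P2rx1, a fast-desensitising channel best known from platelets and smooth muscle, rose nearly as far as P2rx7. Its intensities were 431 and 462 with RA and 188 and 190 with DMSO. In log2 units the RA arrays were at 8.75 and 8.85 and the DMSO arrays at 7.56 and 7.57, and the gap of 1.18 between the nearest arrays far exceeded the distance between replicates, 0.1 and 0.018. The difference was 1.24 ± 0.082, a 2.36-fold rise (95% confidence interval 2.03 to 2.73; limma adjusted p = 0.00863). For comparison, 99 of 22180 genes had a larger positive difference. Of 4 measured markers of platelets and megakaryocytes (Pf4, Ppbp, Itga2b and Gp9), 0 passed in limma, 1 had an unadjusted p under 0.05 and 4 were above the dim level on all arrays. Their summed intensity was 511 to 602 with RA and 561 to 592 with DMSO. Of 7 markers of neutrophil precursors, 0 passed in limma and 6 were above the dim level on all arrays. Prtn3, the 1 with an unadjusted p under 0.05, was higher by 0.73 ± 0.11 (limma adjusted p = 0.0601). The summed intensity of the 7 was 14291 to 14774 with RA and 12733 to 13773 with DMSO, and the higher sum rested on Prtn3. The median log2 difference of the 7 was -0.07, with both RA arrays above both DMSO arrays for 2 and below for 2. The part of the higher sum in any member's result was not tested.

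Panx1, the channel through which cells release ATP, read 8.47 and 8.40 with RA and 8.26 and 8.11 with DMSO. Both RA arrays were higher, by at least 0.145, which is less than the 0.152 between the DMSO replicates. The difference of 0.25 ± 0.092 did not pass (limma adjusted p = 0.344), and its 95% confidence interval ran from 0.014 to 0.495, which spans 1.01-fold to 1.41-fold. The shift of P2rx7 relative to Panx1 on the same arrays was 1.17 (exact permutation p = 0.333, two-sided, the smallest possible here; adjusted p = 0.333).

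Entpd1, the first enzyme of the path from ATP to adenosine, was the only member lower with RA at the threshold. The deposited intensities were 140 and 149 with RA against 322 and 318 with DMSO. As log2 values they were 7.12 and 7.22 against 8.33 and 8.31, so replicates lay 0.093 and 0.019 apart and the nearest arrays of the groups 1.10 apart. The difference was -1.15 ± 0.081, 2.22-fold lower with RA (limma adjusted p = 0.0100). A larger fall was measured for 175 of 22180 genes.

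Nt5e, which carries out the next step, did not pass. It was at 6.28 and 6.38 with RA and 6.33 and 6.21 with DMSO, so the groups overlapped and only RA replicate 2 exceeded the dim level. The difference was 0.057 ± 0.091 (limma adjusted p = 0.852), with a 95% confidence interval of -0.179 to 0.294. At so dim a level the array may understate a difference.

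Adora3, the one adenosine receptor measured and known from mast cells and eosinophils, lay under the dim level on all 4 arrays. Its values were 6.06 and 6.04 with RA and 6.20 and 6.07 with DMSO. The difference of -0.082 ± 0.086 did not pass (limma adjusted p = 0.762; 95% confidence interval -0.307 to 0.143), and it does not show whether the gene responded. Of 7 markers of mast cells and basophils, 0 passed in limma, 1 had an unadjusted p under 0.05, and 2 (Prss34 and Kit) were above the dim level on all arrays. Their summed intensity was 585 to 599 with RA and 629 to 630 with DMSO, and Cpa3, Fcer1a and Hdc were under the dim level throughout. Of 4 eosinophil markers, Siglecf passed as higher (0.61 ± 0.084, limma adjusted p = 0.0488), and Epx, at 6.99 and 6.75 with RA and 6.63 and 6.62 with DMSO, did not. The sum over the 4 was 628 to 640 with RA and 477 to 481 with DMSO. Most of that rise was Siglecf, at 8.58 and 8.66 with RA and 7.97 and 8.06 with DMSO. Prg2 differed by 0.025 ± 0.113 and did not pass, and Il5ra was under the dim level on all arrays. The part of the higher sum in the Adora3 result was not tested.

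Ada, which removes adenosine, was higher on both RA arrays without passing the test. It read 8.88 and 8.84 with RA against 8.24 and 8.35 with DMSO. The nearest arrays of the groups were 0.48 apart and the DMSO replicates 0.11. A difference of 0.56 ± 0.084, or 1.47-fold (95% confidence interval 1.26 to 1.71), had a limma adjusted p of 0.0601, close to the threshold, and passed in 4 of 13 alternative settings, with the lowest adjusted p at 0.00994.

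**Figure D2:**
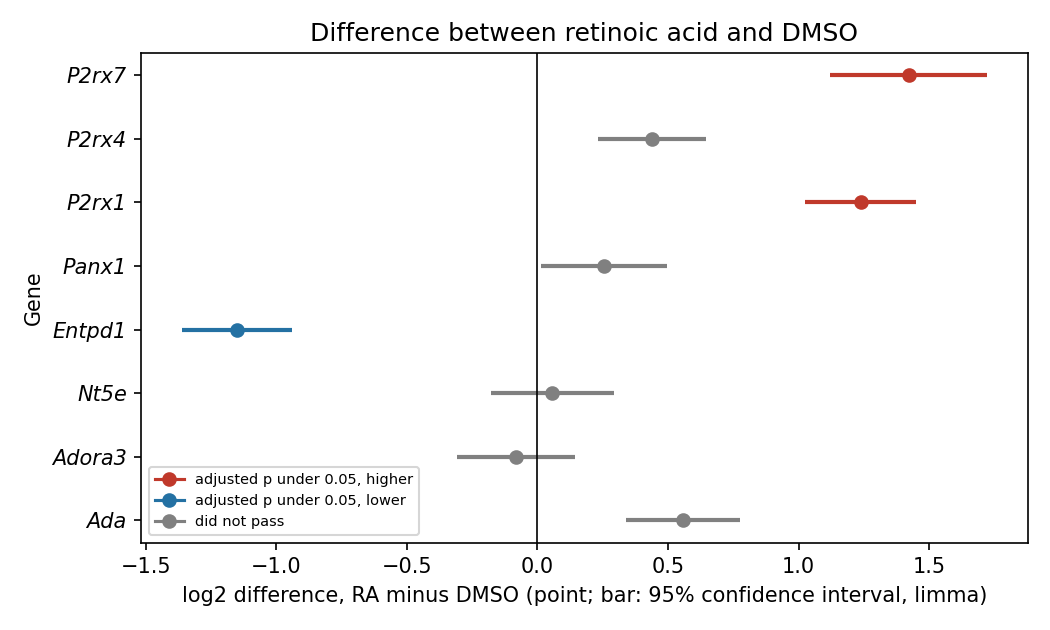
Log2 difference between RA and DMSO (horizontal axis) for each measured gene; points are the differences of means of 2 arrays and bars the 95% confidence interval from limma, not adjusted for multiple tests. P2rx7 (1.42) and P2rx1 (1.24) passed as higher and Entpd1 (-1.15) as lower; the grey genes did not pass, and the intervals of Nt5e and Adora3 cross 0.

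The calls of P2rx7, P2rx1 and Entpd1 rest on all 4 arrays and on the omission of 1625 probe sets, without a name, whose value is the same on every array. With any 1 array left out, their differences kept their direction, but the limma adjusted p lay between 0.0659 and 0.107. With the constant probe sets kept, it was 0.0924, 0.0638 and 0.0638, and limma called 0 of all probe sets, with 6260 at an unadjusted p under 0.05.

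P2rx7 and P2rx4 are neighbours, and the named genes around them were set beside them in RefSeq order. Upstream, Atp2a2, a calcium pump, differed by 0.008 ± 0.082 and Ift81 by 0.068 ± 0.077, the latter under the dim level on all arrays. On the far side, Camkk2, a calcium-dependent kinase and the next named gene after P2rx4, fell. Camkk2 was at 8.66 and 8.76 with RA and 9.39 and 9.47 with DMSO, a difference of -0.72 ± 0.085 (limma adjusted p = 0.0324). It did not pass with the constant probe sets kept or with the replicate number as a block (limma adjusted p = 0.0924 and 0.119). Without any 1 array its difference ranged from -0.768 to -0.673. Anapc5, next in order, differed by 0.001 ± 0.079. Of the 4 genes around the pair, 1 passed, and it was lower where P2rx7 was higher. Of the 4 named neighbours of P2rx1 and the 4 of Entpd1, 0 passed in limma, and 1 of each had an unadjusted p under 0.05.

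**Figure D3:**
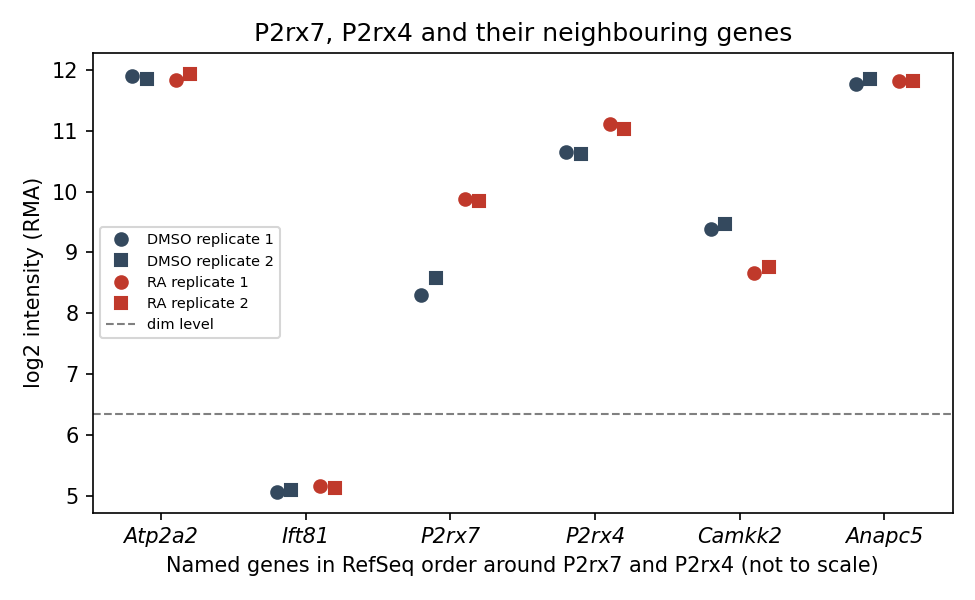
Log2 intensity (vertical axis) on each array for P2rx7, P2rx4 and the 4 named genes around them in RefSeq order, not to scale; circles are replicate 1, squares replicate 2 and the dashed line the dim level. P2rx7 is higher on both RA arrays by at least 1.27, Camkk2 is lower on both (-0.72 on average), and Atp2a2, Ift81 and Anapc5 differ by less than 0.1.

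Over the 4 arrays, the genes whose values, each centred on its own mean, lay closest to those of P2rx7 were the cholesterol exporter Abca1, Plppr3 and 4931406C07Rik, at root mean square distances of 0.059, 0.060 and 0.066. Abca1 was at 9.06 and 8.93 with RA and 7.56 and 7.79 with DMSO, and so shared the lower DMSO replicate 1. Closest to Entpd1 were the pyrophosphate transporter gene Ank, the G protein subunit Gna15 and the kinase Dapk1, at 0.034, 0.035 and 0.036. In all, 10 genes lay within 0.1 of P2rx7 and 63 within 0.1 of Entpd1. With 4 arrays and 2 treatments, such likeness is a description only.

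Around the members, 59 of 66 listed genes of the same pathways were measured. Of these, 5 rose, 5 fell and 49 did not pass. The share called was 16.9%, beside 3.07% of all genes, and the shares were not matched for intensity. The lists were chosen with earlier results of these data known, so their count is a description. Among 9 other ATP channel and release genes, P2rx5, another P2X channel, fell and 0 rose. Its RA arrays both read 7.63 while the DMSO arrays were at 9.84 and 9.20, a difference of -1.89 ± 0.222 (limma adjusted p = 0.0319). P2rx2, P2rx3 and P2rx6 were under the dim level on all arrays, so that of the P2X genes above that level on all arrays, P2rx7 and P2rx1 rose, P2rx5 fell and P2rx4 did not pass. Slc17a9, which loads ATP into vesicles, was at 8.88 and 8.87 against 8.52 and 8.57 and did not pass (adjusted p = 0.157).

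Of 9 measured genes related to the ectonucleotidases, other than the members, Enpp4 rose and 0 fell. Enpp4, of the ectonucleotide pyrophosphatase family, was at 8.64 and 8.43 with RA and 6.75 and 6.63 with DMSO, higher by 1.85 ± 0.107 (limma adjusted p = 0.00646). Entpd5, Entpd6 and Entpd7, relatives of Entpd1 above the dim level, differed by -0.15, 0.15 and -0.058 and did not pass. Of 11 measured genes of adenosine uptake and clearance, Slc29a3, a nucleoside transporter of lysosomes, fell by 1.55 on the log2 scale (limma adjusted p = 0.00603). The surface peptidase Dpp4, placed in the same list, rose by 1.12 ± 0.147 (limma adjusted p = 0.0426). Whether the Dpp4 rise bears on adenosine was not tested. The plasma membrane carrier Slc29a1 and adenosine kinase, Adk, differed by 0.18 ± 0.081 and -0.023 ± 0.10, and neither passed.

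Downstream of P2rx7, 1 of 9 inflammasome genes rose, 1 fell and 7 did not pass, with a median log2 difference of 0.12. The adaptor Pycard (ASC) was at 10.22 and 10.17 with RA and 9.49 and 9.54 with DMSO (0.68 ± 0.078, limma adjusted p = 0.0298). The sensor Nlrp3 was lower, at 8.92 on both RA arrays and 9.69 on both DMSO arrays (-0.77 ± 0.075, adjusted p = 0.0204). Casp1 differed by 0.21 ± 0.128 and did not pass. Il1b read 9.90 and 9.13 with RA against 9.02 and 9.09, so its RA replicates differed by more than the treatments and it did not pass (adjusted p = 0.541).

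Downstream of the adenosine receptors, 21 genes of the cyclic AMP pathway were measured, of which 2 rose, 2 fell and 17 did not pass (median log2 difference -0.04). The phosphodiesterases, which break down cyclic nucleotides, split: Pde3b rose by 1.06 ± 0.112 and Pde7a by 0.62 ± 0.087, and Pde8a fell by 0.96 (limma adjusted p = 0.0249, 0.0498 and 0.0349). Nr4a3, a nuclear receptor gene induced by cyclic AMP, fell by 1.06 on the log2 scale (adjusted p = 0.0431). Its relatives Nr4a1 and Nr4a2 differed by -0.06 ± 0.130 and -0.086 ± 0.135 and did not pass. None of these 10 pathway calls was made with the constant probe sets kept, and only P2rx5 passed with an array left out (DMSO replicate 2; adjusted p = 0.0498).

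**Figure D4:**
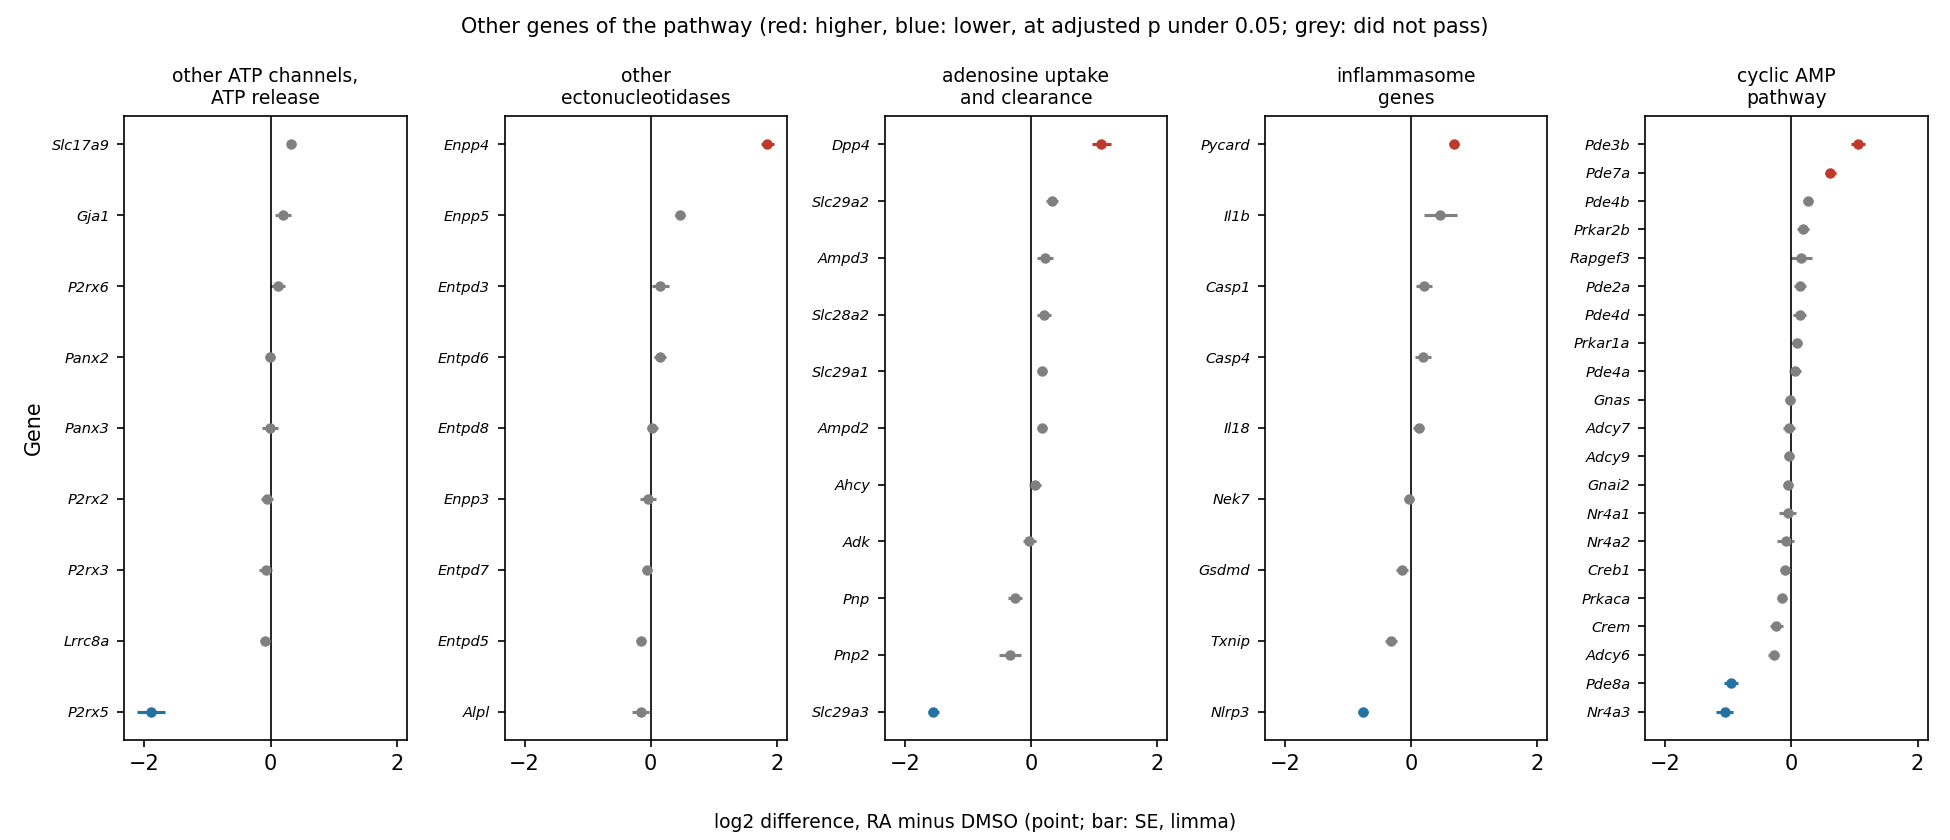
Log2 difference between RA and DMSO (horizontal axes) for the 59 measured genes of the 5 pathway lists, with the SE from limma as bars and 2 arrays in each group. The coloured points are the 10 genes that passed, 5 higher (red) and 5 lower (blue), with P2rx5 (-1.89) and Enpp4 (1.85) farthest from 0.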

How the data were processed

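Whole-transcript arrays were read from biotin-labelled cDNA made from 250 ng of RNA, per the labels' protocols. The deposited table holds 1 linear-scale intensity for each array and probe set, made by the authors with Affymetrix Expression Console and RMA per the submitters' processing notes; versions and genome build are not given in the sources used here. RMA smooths background, which understates differences of dim genes. The number of arrays limits the precision.

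Log2 intensities were used without further normalization. Of 41345 probe sets, 1625 unnamed ones with one constant value were left out. RA was compared with DMSO over the 39720 others by limma (version 3.58.1, R 4.3.3; lmFit, eBayes), two-sided, with Benjamini-Hochberg adjustment over all of them and a threshold of 0.05. With 2 arrays against 2, exact permutation p-values cannot go below 0.333.

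Names came from the platform annotation, in which 23521 probe sets had 1 symbol, 1814 several and 16010 none; 23328 of the 23521 gene identifiers were found in RefSeq. A listed gene was represented by its brightest probe set. Listed genes that no 1-symbol probe set names were not analysed here. Named were all members, the listed genes that passed (at most 5 per direction and list), 3 RA response genes, and the 3 genes most like the members with the largest rise and fall; the neighbours and the other listed genes named were chosen after their values were seen. The marker lists for B cells, T and NK cells and erythroid cells had 1 (Cd79b, higher), 0 and 0 genes that passed in limma, and 1, 0 and 0 at an unadjusted p under 0.05. The members, lists, dim level and the choice to leave out constant probe sets were all made with earlier results of these data known.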

Additional observations from a re-analysis of the deposited data

How the results depend on the processing

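Direction held for each member in every alternative run, except for Nt5e, which ranged from -0.006, without DMSO replicate 2, to 0.121. Without any 1 array the differences ranged from 1.287 to 1.555 for P2rx7, 1.188 to 1.288 for P2rx1 and -1.197 to -1.104 for Entpd1, with 0 members called by limma (5 to 6 had an unadjusted p under 0.05), 0 pathway genes higher and 0 to 1 lower. All probe sets called numbered 12 to 30 higher and 13 to 25 lower in those fits, against 359 and 472. A lone array was assumed to vary like the other group.

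With the constant probe sets kept, limma called 0 probe sets, members and pathway genes in either direction. The differences of P2rx7, P2rx1 and Entpd1 stayed at 1.42, 1.24 and -1.15 but did not pass. With only 1-symbol probe sets, 757 were higher and 879 lower, and above the dim level 554 were higher and 680 lower. In both, and with a variance trend, 4 members were higher, since P2rx4 (0.44) and Ada (0.56) passed too. Ada also passed on log2(intensity + 16), at 0.535.

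The labels give no link between same-numbered arrays, and their deviations from the group means correlated at -0.25 across probe sets, so the numbers were not used as pairs; whether arrays share a culture or pool is not known. With the replicate number as a block, 73 probe sets were higher and 88 lower, 0 members passed (P2rx7 1.42, P2rx1 1.24, Entpd1 -1.15), and 1 pathway gene was higher and 1 lower. With the numbers crossed, an alternative chosen after seeing the data, 194 probe sets were higher and 263 lower, with 2 members higher and 1 lower and 3 pathway genes higher and 2 lower. The alternative of choosing another probe set per member could not be run, as each had 1. Depth does not apply to arrays, and Nt5e and Adora3 are limited by signal near background.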
